A study of Mus musculus with 16 samples.

Results

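The 30 genes described here belong to cholesterol synthesis and the control of sterol levels, and were taken by symbol from a table of 13430 genes measured in mouse kidney. All 30 listed genes were in the table and all 30 passed the filter on low values, among 12943 genes that did. They comprise 19 enzymes that make cholesterol or its isoprenoid precursors, 5 genes that control SREBP, and 6 genes of sterol transfer and of the liver X receptors. The choice of genes sets 1 enzyme, Hmgcs1, against the rest of the pathway. Female C57BL/6 mice between 2 and 3 months old gave 16 libraries, 1 per animal, from RNA of a horizontal mid-kidney section 3 mm thick, in 4 groups of 4. The groups were IRR(-/-) mice given bicarbonate, IRR(-/-) mice given water, wild-type mice given bicarbonate and wild-type mice given water. Bicarbonate meant 7 days of drinking water with 250 mM NaHCO3 at pH 8.5, and food was withheld for 12 h in all 4 groups. IRR(-/-) is a knockout of Insrr, the gene of the insulin receptor-related receptor, a receptor tyrosine kinase known as a sensor of extracellular alkali. The labels do not say which part of the gene was removed, and give no litter or batch.

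Cells make cholesterol from acetyl-CoA through mevalonate, the isoprenoid diphosphates, squalene and lanosterol. When sterols in the endoplasmic reticulum are low, SCAP carries SREBP-2 to the Golgi, where it is cut into a transcription factor for these enzymes; when sterols are high, INSIG proteins hold SCAP back. The liver X receptors sense oxysterols and drive genes of cholesterol export. In the kidney this pathway is known mainly for supplying membrane cholesterol to tubule cells.

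Insrr was lower in the IRR(-/-) libraries but not absent, at 3.58 ± 0.181 RPKM in IRR(-/-) mice on bicarbonate, 3.62 ± 0.343 RPKM in IRR(-/-) mice on water, 5.13 ± 0.972 RPKM in wild-type mice on bicarbonate and 5.93 ± 0.824 RPKM in wild-type mice on water (SD, n = 4 each). The median gene had 8.44 to 8.92 RPKM in the 16 libraries, whereas the summed RPKM was 2.42e+06 to 2.93e+06 in IRR(-/-) libraries and 1.36e+06 to 1.60e+06 in wild-type libraries. Replicate 3 of the wild-type mice on bicarbonate stood apart from the other libraries, at 50.8 on the second principal component against -22.1 to 21.8 in the other 15. All 7 markers of the proximal tubule were present, Slc34a1 at 779 to 1264 RPKM and the others between 68.9 and 321 RPKM. Their summed level was 1745 to 1801 RPKM in IRR(-/-) mice on bicarbonate, 1970.2 to 2058 RPKM in IRR(-/-) mice on water, 1732 to 2027 RPKM in wild-type mice on bicarbonate and 2079.8 to 2355 RPKM in wild-type mice on water. Of 7 markers of the adrenal cortex, a steroid-making gland beside the kidney, Star had 1.54 to 2.27 RPKM and the other 6 were not analysed here.

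Hmgcs1, the cytosolic HMG-CoA synthase, an enzyme of the first steps of the pathway, had the widest range of group means of the 30 genes and was lower in IRR(-/-) kidneys on both drinks. Its level was 42.8, 44.2, 40.3 and 52.6 RPKM in IRR(-/-) mice on bicarbonate and 71.1, 66.5, 61.4 and 57.9 RPKM in IRR(-/-) mice on water. In wild-type mice it was 96.2, 88.4, 90.7 and 109.6 RPKM on bicarbonate and 121, 129, 133 and 143 RPKM on water. All 8 IRR(-/-) libraries lay below all 8 wild-type libraries, and within each genotype every mouse on bicarbonate lay below every mouse on water, so no groups overlapped. The means were 45 ± 5.32, 64.2 ± 5.75, 96.2 ± 9.52 and 131 ± 9.18 RPKM for IRR(-/-) bicarbonate, IRR(-/-) water, wild-type bicarbonate and wild-type water (SD, n = 4 each), a 2.92-fold range between the lowest and the highest group. The next widest ranges were 1.95-fold for Fdps and 1.89-fold for Cyp51, and the narrowest was 1.03-fold for Ggps1.

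The genotype difference of Hmgcs1 was -1.10 ± 0.09 on bicarbonate and -1.03 ± 0.09 on water on the log2(RPKM + 0.1) scale (IRR(-/-) minus wild type ± SE; adjusted p = 2.71e-06 and 3.14e-06, limma with Benjamini-Hochberg adjustment over all genes). By p it ranked 33 on bicarbonate and 63 on water among the 12943 genes tested. By the size of the fall it ranked 200 on bicarbonate and 254 on water among all genes tested. Among the 6275 genes with a mean of at least 10 RPKM it ranked 41 and 46. In RNA of a kidney section, fewer cells of a type and less RNA per cell cannot be told apart. Exons of Hmgcs1 share 12.1% of their bases with the antisense gene Gm48342, which is not among the genes analysed here, and no source used here gives the strand setting of the counting. Hmgcs1 lies at chr13:119690379-119708260, plus strand in GRCm38.

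**Figure D1:**
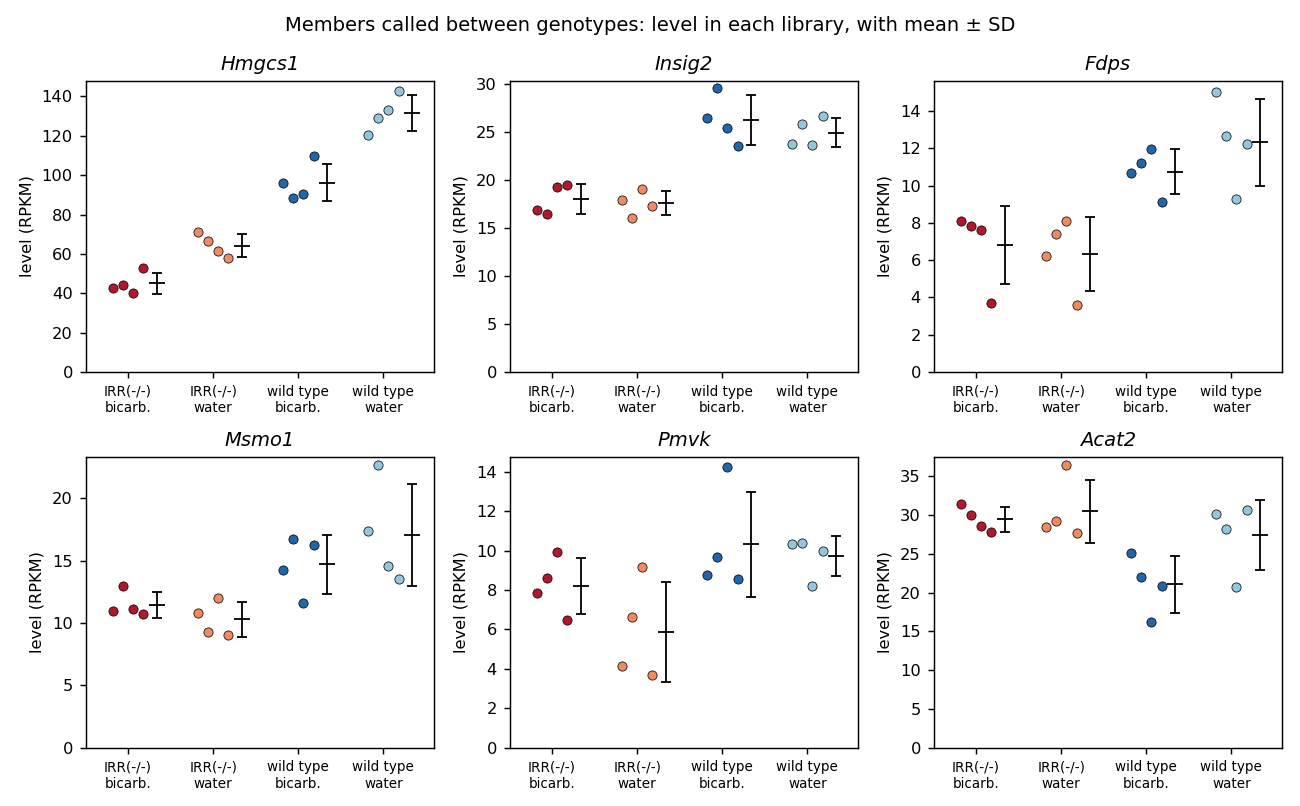
Level in RPKM (vertical axes, linear, from 0) of the 6 genes that differed between genotypes on at least 1 drink; each point is 1 library, the bar beside it is the group mean ± SD (n = 4), and the groups are, from left, IRR(-/-) on bicarbonate, IRR(-/-) on water, wild type on bicarbonate and wild type on water. Hmgcs1 climbs in steps over the 4 groups without overlap, Insig2 separates the genotypes but not the drinks, and Acat2 is the only one of the 6 whose IRR(-/-) means are above the wild-type means.

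The place of Hmgcs1 within the pathway changed with its level. It was the most abundant of the 30 genes per unit length in all 8 wild-type libraries, and ranked 2 to 4 in the IRR(-/-) libraries. Of the summed RPKM of the 30 genes it made up 8.11 ± 0.765% in IRR(-/-) mice on bicarbonate, 10.96 ± 1.34% in IRR(-/-) mice on water, 15.7 ± 1.22% in wild-type mice on bicarbonate and 18.3 ± 1.01% in wild-type mice on water (SD, n = 4 each). The other 18 enzymes of synthesis together summed to 272 ± 10.2, 295 ± 45.0, 279.5 ± 37.9 and 360.1 ± 19.7 RPKM in the same order. That sum overlapped between genotypes on each drink. On bicarbonate it ranged from 264 to 287 RPKM in IRR(-/-) mice and from 225 to 307 RPKM in wild-type mice. The 225 was replicate 3, the library that stood apart, and the others of that group had 284 to 307 RPKM. On water the ranges were 254 to 339 RPKM and 333 to 376 RPKM, where only replicate 3 of the IRR(-/-) mice, at 339 RPKM, reached the wild-type range. Ebp and Cyp51 were the largest parts of the sum, with means of 91.3 and 73.3 RPKM in wild-type mice on water. Lpcat3, an enzyme that remodels phospholipids, Ebp, a sterol isomerase, Cyp51 and Nr1h2 were the other abundant genes, at group means of 36.2 to 91.3 RPKM. At the low end stood Mvk, Fdft1 and Abcg1, at group means of 2.99 to 6.44 RPKM.

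**Figure D2:**
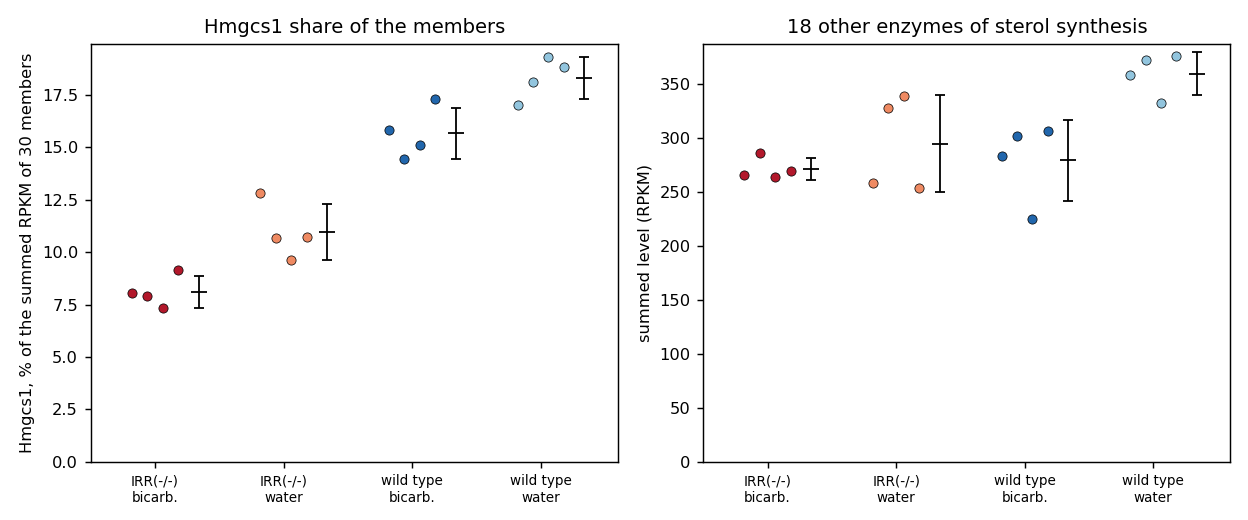
Left, Hmgcs1 as a percentage of the summed RPKM of the 30 genes; right, summed RPKM of the 18 other enzymes of sterol synthesis, in each library (points) with the group mean ± SD (n = 4). On bicarbonate the share of Hmgcs1 was 8.11% in IRR(-/-) mice and 15.7% in wild-type mice, and on water 10.96% and 18.3%. The mean sum of the other enzymes was 272 and 279.5 RPKM on bicarbonate, and 295 and 360.1 RPKM on water. That sum overlaps between genotypes on each drink.

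Promoter sequences are shown for the genes that differed between genotypes and had an entry, so that their windows can be read against that of Hmgcs1; Fdps had none. The windows run from 250 bases before to 50 bases after a transcript start of RefSeq in GRCm38.p6, each printed 5′ to 3′ on the gene's strand. Capitals mark TCACNCCAC, the form of the sterol regulatory element searched for, and CCAAT, the letters of the NF-Y box, which stand as ATTGG where they lie on the other strand. The windows are chr13:119690101-119690400 on the plus strand for Hmgcs1, chr1:121332540-121332839 on the minus strand for Insig2, chr8:64733529-64733828 on the minus strand for Msmo1, chr3:89454291-89454590 on the plus strand for Pmvk and chr17:12960676-12960975 on the minus strand for Acat2.
Hmgcs1: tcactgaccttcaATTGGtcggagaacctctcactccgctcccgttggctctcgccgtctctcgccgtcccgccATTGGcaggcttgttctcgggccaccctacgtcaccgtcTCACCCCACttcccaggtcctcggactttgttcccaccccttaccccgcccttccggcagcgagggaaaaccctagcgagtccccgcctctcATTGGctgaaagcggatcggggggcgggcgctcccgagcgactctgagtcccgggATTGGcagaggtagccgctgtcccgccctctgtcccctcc
Insig2: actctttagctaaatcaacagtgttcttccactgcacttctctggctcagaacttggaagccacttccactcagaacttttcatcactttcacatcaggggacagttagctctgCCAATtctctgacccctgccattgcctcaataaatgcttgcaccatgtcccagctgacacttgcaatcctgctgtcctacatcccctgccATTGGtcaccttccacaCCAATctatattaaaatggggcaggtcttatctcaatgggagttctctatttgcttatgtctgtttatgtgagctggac
Msmo1: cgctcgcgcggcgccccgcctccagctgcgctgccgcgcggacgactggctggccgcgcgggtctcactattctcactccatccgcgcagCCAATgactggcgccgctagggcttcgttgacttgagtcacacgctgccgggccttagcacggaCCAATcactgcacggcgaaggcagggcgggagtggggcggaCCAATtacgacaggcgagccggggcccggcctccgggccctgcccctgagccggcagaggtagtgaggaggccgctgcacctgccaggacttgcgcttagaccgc
Pmvk: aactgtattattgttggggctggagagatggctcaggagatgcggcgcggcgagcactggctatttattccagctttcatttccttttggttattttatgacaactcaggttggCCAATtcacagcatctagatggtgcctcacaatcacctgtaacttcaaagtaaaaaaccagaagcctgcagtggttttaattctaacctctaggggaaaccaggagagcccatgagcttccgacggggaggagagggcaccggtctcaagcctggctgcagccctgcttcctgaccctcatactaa
Acat2: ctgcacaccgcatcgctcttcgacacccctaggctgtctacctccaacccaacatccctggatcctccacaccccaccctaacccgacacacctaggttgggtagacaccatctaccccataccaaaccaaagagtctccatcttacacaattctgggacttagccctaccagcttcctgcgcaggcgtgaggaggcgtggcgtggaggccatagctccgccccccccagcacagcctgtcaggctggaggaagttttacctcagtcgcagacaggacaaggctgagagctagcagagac

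Of the 30 genes, 25 had a promoter entry, with 34 windows. TCACNCCAC, searched on both strands, was in the Hmgcs1 window alone of these, 137 bases before the start, and in 1.24% of all 32851 windows of the same length. CCAAT was in 21 of the 34 windows, which belonged to 20 of the 25 genes, and in 37.4% of all windows. Of the printed windows, that of Hmgcs1 held 4 copies, at 237, 176 and 45 bases before and 10 bases after the start. The printed Insig2 and Msmo1 windows held 3 each, the Pmvk window 1 and the Acat2 window 0. Each printed window covers the annotated 5′ end of its gene. Insig2 and Pmvk also had windows at other starts, which held 0 copies of either motif. Which start these kidneys used was not tested. No motif overlapped another in the 5 printed windows. A match is a run of letters and not a measured binding site.

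The share of the 30 genes called between IRR(-/-) and wild-type kidneys was somewhat below that of all genes on each drink, a gap that was not tested. On bicarbonate 3 passed the test, which is 10% of the 30 against 18.4% of all genes tested; Acat2 was higher (9.03% of all genes) and Hmgcs1 and Insig2 were lower (9.36%). On water 5 passed, 16.7% of the 30 against 21.9% of all genes, of which 0 were higher (10.1%) and 5 lower (11.8%), namely Hmgcs1, Insig2, Msmo1, Fdps and Pmvk. The groups did not overlap for 4 of the 30 on bicarbonate (22.8% of all genes) and for 6 on water (23.8%). Their median log2 difference was 0.01 on bicarbonate and -0.10 on water, against -0.02 and -0.05 for all genes.

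Summed levels of some cell-type markers also differed with genotype. The 4 macrophage markers summed to 105 to 117 RPKM in IRR(-/-) mice on bicarbonate and 112 to 129 RPKM in IRR(-/-) mice on water, against 84.7 to 103 RPKM in wild-type mice on bicarbonate and 68.2 to 99.4 RPKM in wild-type mice on water; 1 of the 4 was called, on water. The 4 intercalated-cell markers summed to 76.3 to 82.0 and 83.2 to 104 RPKM in IRR(-/-) mice on bicarbonate and water, against 99.2 to 137 and 94.0 to 107 RPKM in wild-type mice. The 5 blood markers summed to 234 to 612 and 373 to 2068 RPKM in IRR(-/-) mice on bicarbonate and water, against 811 to 1549.9 and 501 to 1572 RPKM in wild-type mice. The macrophage sums did not overlap between genotypes on either drink, and the intercalated-cell and blood sums were apart on bicarbonate and overlapped on water. Cd74 was the largest part of the macrophage sum, at 49.7 to 114 RPKM over the 16 libraries. Csf1r, Cd68 and Adgre1 reached at most 14.8, 3.92 and 2.05 RPKM, so the macrophage sum mostly follows Cd74. On bicarbonate 1 intercalated-cell and 2 blood markers were called lower, and on water 1 intercalated-cell marker. In the nephron, thick ascending limb markers summed to 858 to 1043 RPKM in IRR(-/-) mice on water and 1142 to 1347 RPKM in wild-type mice on water, without overlap, and overlapped on bicarbonate; 1 of the 2 was called lower on each drink. Distal convoluted tubule markers summed to 228 to 234 RPKM in IRR(-/-) mice on bicarbonate and 204 to 222 RPKM in wild-type mice on bicarbonate, without overlap, and overlapped on water; 1 of the 2 was called higher on each drink. The proximal tubule sums given above did not overlap between genotypes on water, where 3 of the 7 markers were called higher and 2 lower, and overlapped on bicarbonate, where 1 was called in each direction. Sums for collecting duct principal cells, podocytes, endothelium, adipose tissue and liver overlapped on both drinks. Of the 3 collecting duct principal markers 1 was called lower on water, and of the 3 podocyte markers 1 was called higher and 1 lower on bicarbonate. None of these markers was at 0 in any library, and their part in the differences described here was not tested.

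**Figure D3:**
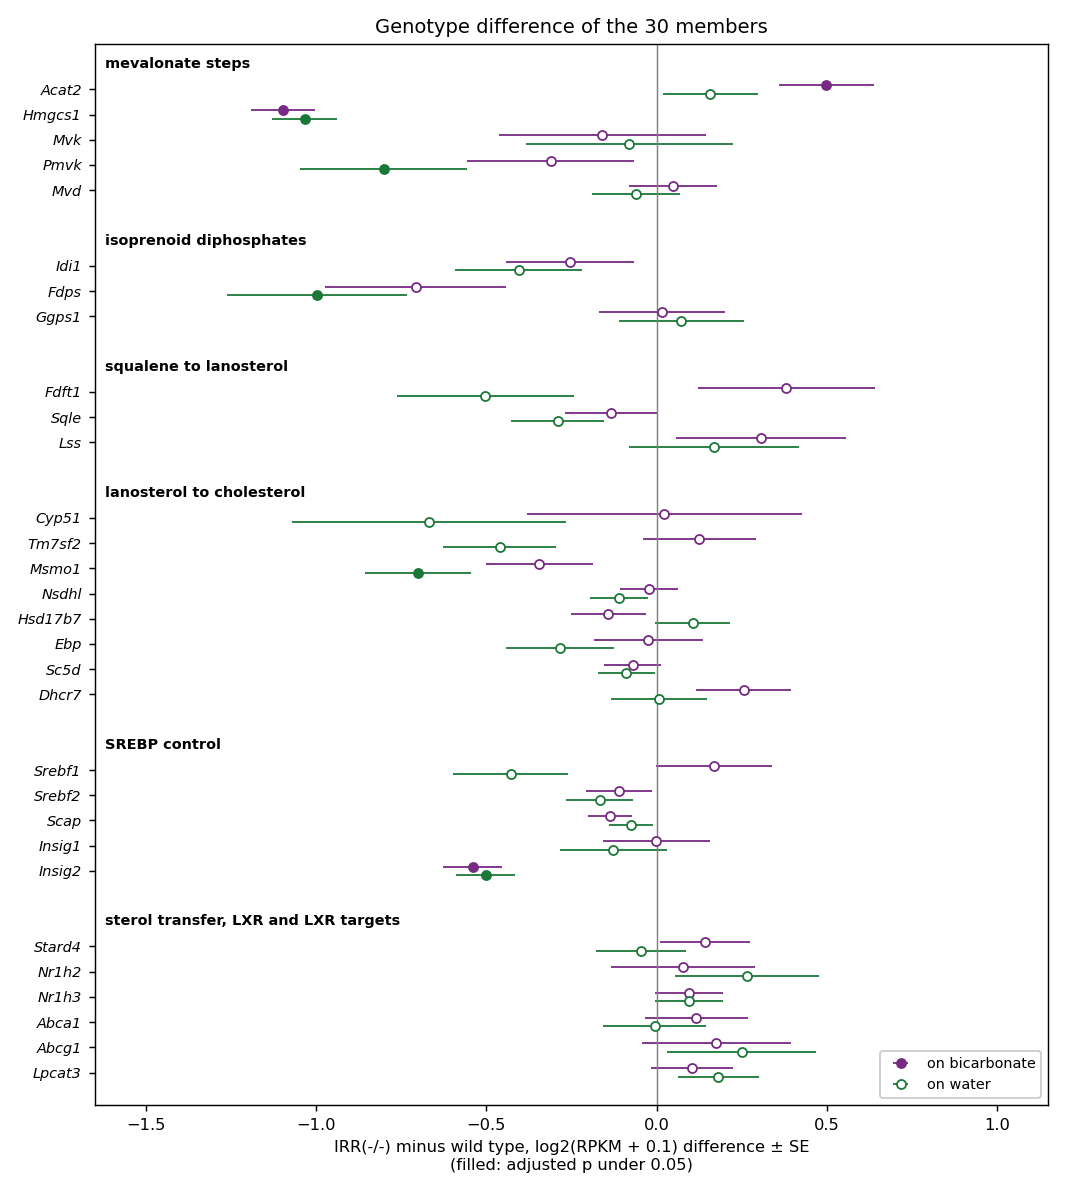
Difference between IRR(-/-) and wild type (horizontal axis, log2(RPKM + 0.1) scale, estimate ± SE) of each of the 30 genes, grouped by role, on bicarbonate (purple) and on water (green); filled points had an adjusted p under 0.05. Hmgcs1 sits near -1 on both drinks, Insig2 near -0.5 on both, and most other genes lie within 0.5 of 0.

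Among the 4 other enzymes of the first steps, Pmvk and Acat2 passed the test, each on 1 drink. Pmvk, phosphomevalonate kinase, had 4.12, 6.63, 9.15 and 3.66 RPKM in IRR(-/-) mice on water and 10.3, 10.4, 8.22 and 9.96 RPKM in wild-type mice on water. Replicate 3 of the IRR(-/-) mice lay inside the wild-type range and the other 3 below it. The log2 difference was -0.80 ± 0.25 on water (adjusted p = 0.0292, limma) and -0.31 ± 0.25 on bicarbonate (adjusted p = 0.416). On bicarbonate Pmvk had 7.83, 8.58, 9.92 and 6.47 RPKM in IRR(-/-) mice and 8.77, 9.68, 14.2 and 8.56 RPKM in wild-type mice. The call on water was lost when replicate 1 or 4 of the IRR(-/-) mice, or 1, 2 or 4 of the wild-type mice, was left out, and in a fit of only these groups, with adjusted p from 0.00424 to 0.0912 over the libraries left out. Pmvk lies 1.66 Mb from Insrr on chromosome 3 (chr3:89454541-89469013, plus strand).

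Acat2, the cytosolic thiolase that joins acetyl-CoA units, was the only gene of the 30 called higher in IRR(-/-) kidneys, and only on bicarbonate. On bicarbonate it had 31.4, 30.01, 28.5 and 27.8 RPKM in IRR(-/-) mice and 25.1, 21.96, 16.3 and 20.8 RPKM in wild-type mice, with no overlap (log2 difference 0.50 ± 0.14, adjusted p = 0.0221, limma). Without replicate 3 of the wild-type mice on bicarbonate, the library that stood apart, the difference was 0.38 (adjusted p = 0.0609), and the call was also lost without replicate 1 or replicate 2 of the IRR(-/-) mice on bicarbonate (adjusted p = 0.0523 and 0.0514, in a range of 0.0101 to 0.0609 over the alternatives). On water it had 28.5, 29.2, 36.5 and 27.6 RPKM in IRR(-/-) mice and 30.1, 28.2, 20.8 and 30.6 RPKM in wild-type mice (log2 difference 0.16 ± 0.14, adjusted p = 0.464). Its value is uncertain, because Acat3 is a close copy next to it: 50.5% of the 31-base words of the longest Acat2 transcript also occur in Acat3. Acat3 had 17.2 ± 2.35 RPKM in IRR(-/-) mice on bicarbonate and 38.6 ± 11.5 RPKM in wild-type mice on bicarbonate, the opposite direction. The sum of both copies was 46.7 ± 3.88 RPKM in IRR(-/-) mice on bicarbonate and 59.6 ± 7.90 RPKM in wild-type mice on bicarbonate (SD, n = 4 each). Acat2 lies at chr17:12942890-12960747, minus strand.

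Mvk and Mvd, the kinase and the decarboxylase of mevalonate, did not pass the test in either genotype comparison, with log2 differences of -0.16 and 0.05 on bicarbonate and -0.08 and -0.06 on water. Their levels overlapped between genotypes on both drinks. Mvk ranged from 2.08 to 6.41 RPKM over the 16 libraries.

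Of the 3 enzymes of isoprenoid diphosphates, Fdps passed the test on water. Fdps, farnesyl diphosphate synthase, makes the branch point between sterols and protein prenylation. It had 6.199, 7.38, 8.07 and 3.57 RPKM in IRR(-/-) mice on water and 15.03, 12.7, 9.301 and 12.3 RPKM in wild-type mice on water (log2 difference -0.997 ± 0.26, adjusted p = 0.0142, limma). On bicarbonate it had 8.11, 7.84, 7.63 and 3.68 RPKM in IRR(-/-) mice and 10.7, 11.2, 11.9 and 9.11 RPKM in wild-type mice (log2 difference -0.71 ± 0.26, adjusted p = 0.0772). The genotypes did not overlap on either drink, and replicate 4 was the lowest of the IRR(-/-) mice on both. Fdps lies 1.30 Mb from Insrr (chr3:89093588-89101959, minus strand), and 13.6% of its words also occur in the overlapping gene Gm43738.

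Fdps and Pmvk are the members on the chromosome of Insrr within 2 Mb of it. Of the 75 genes tested in that window, 7 were lower and 12 higher on water, 25.3% in all against 21.9% of all genes, and on bicarbonate 4 were lower and 13 higher, 22.7% against 18.4%. The part of that position in their difference was not tested. Idi1, the isomerase that makes dimethylallyl diphosphate, had a log2 difference of -0.25 on bicarbonate and -0.41 on water (adjusted p = 0.380 and 0.139). Ggps1, which makes geranylgeranyl diphosphate, had differences of 0.02 and 0.07. Of the 31-base words of the longest transcript, 32.2% for Idi1 and 17.6% for Ggps1 also occur in transcripts of other genes.

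Of the 3 enzymes from squalene to lanosterol, 0 passed the limma test in either genotype comparison, and 0 had an unadjusted p under 0.05, against 31.4% of all genes on bicarbonate and 34.3% on water. Fdft1, squalene synthase, had 4.85 ± 1.17 RPKM in IRR(-/-) mice and 3.704 ± 0.895 RPKM in wild-type mice on bicarbonate, and 4.38 ± 1.11 and 6.44 ± 2.59 RPKM on water (SD, n = 4 each). Its log2 differences were 0.38 ± 0.26 and -0.50 ± 0.26 (adjusted p = 0.343 and 0.188), of opposite sign. Sqle, squalene epoxidase, a rate-limiting enzyme of the pathway, had differences of -0.13 on bicarbonate and -0.29 on water, and Lss, which closes the sterol rings, of 0.31 and 0.17. All 3 overlapped between genotypes on both drinks. Of the words of the longest Fdft1 transcript 36.8% also occur in transcripts of other genes, mainly Ctsb (20.3%), which overlaps it on the opposite strand.

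Of the 8 enzymes from lanosterol to cholesterol, Msmo1 passed the test, on water. Msmo1, the C4-methyl sterol oxidase, had 10.8, 9.31, 12.04 and 9.05 RPKM in IRR(-/-) mice on water and 17.4, 22.7, 14.6 and 13.5 RPKM in wild-type mice on water, without overlap (log2 difference -0.70 ± 0.16, adjusted p = 0.00485, limma). On bicarbonate it had 11, 13.01, 11.2 and 10.7 RPKM in IRR(-/-) mice and 14.2, 16.7, 11.6 and 16.2 RPKM in wild-type mice, where replicate 3 of the wild-type mice lay inside the IRR(-/-) range (log2 difference -0.34 ± 0.16, adjusted p = 0.145). It lies at chr8:64718139-64733792, minus strand.

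Cyp51, the lanosterol 14-alpha-demethylase, varied most within groups of the 30 genes, with a within-group SD of 0.61 on the log2 scale, against 0.13 for Hmgcs1 and 0.07 for Scap, the steadiest. That place rested on replicate 3 of the wild-type mice on bicarbonate, the library that stood apart: without it the SD of Cyp51 was 0.31, rank 6 of the 30, and Mvk had the highest, 0.48. It had 29.3, 62.8, 63.7 and 38.3 RPKM in IRR(-/-) mice on water and 73.9, 79.5, 69.3 and 70.5 RPKM in wild-type mice on water, which did not overlap but did not pass the test (log2 difference -0.67 ± 0.40, adjusted p = 0.265). On bicarbonate it had 34.7, 43.2, 32.7 and 44.9 RPKM in IRR(-/-) mice and 54.1, 55.6, 12.4 and 55.4 RPKM in wild-type mice, the lowest value being that library; the log2 difference was 0.02 ± 0.40 with it and -0.51 without it, and did not pass the test either way. Tm7sf2, a C14 sterol reductase, also did not overlap on water, at 4.26 to 5.97 RPKM in IRR(-/-) mice and 6.62 to 7.86 RPKM in wild-type mice (log2 difference -0.46 ± 0.17, adjusted p = 0.0605). The other 5, Nsdhl, Hsd17b7, Ebp, Sc5d and Dhcr7, the last of which completes cholesterol, had differences of -0.14 to 0.26 on bicarbonate and -0.28 to 0.11 on water and overlapped on both drinks.

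Among the 5 genes of SREBP control, Insig2 alone passed the test and did so on both drinks. INSIG2 is one of the proteins that retain SCAP in the endoplasmic reticulum. Insig2 had 16.8, 16.4, 19.2 and 19.5 RPKM in IRR(-/-) mice on bicarbonate and 17.95, 16.03, 19.1 and 17.3 RPKM in IRR(-/-) mice on water. In wild-type mice it had 26.5, 29.6, 25.4 and 23.5 RPKM on bicarbonate and 23.7, 25.8, 23.6 and 26.6 RPKM on water. All IRR(-/-) libraries were below all wild-type libraries, and the drinks overlapped within each genotype. The log2 difference was -0.54 ± 0.09 on bicarbonate and -0.50 ± 0.09 on water (adjusted p = 0.000572 and 0.000762, limma). Insig2 lies at chr1:121304353-121332589, minus strand.

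Its paralog Insig1, itself an SREBP target in many cells, had 11.2 ± 1.11 RPKM in IRR(-/-) mice and 11.2 ± 1.39 RPKM in wild-type mice on bicarbonate, and 12.1 ± 2.48 and 13.2 ± 2.54 RPKM on water (SD, n = 4 each). Srebf2, the gene of SREBP-2, and Scap had log2 differences of -0.11 and -0.14 on bicarbonate and -0.17 and -0.08 on water, and did not pass the test. Srebf1, whose product mainly drives fatty acid synthesis, had 10.1, 8.25, 8.54 and 8.04 RPKM in IRR(-/-) mice on water and 15.6, 9.66, 12.96 and 9.78 RPKM in wild-type mice on water (log2 difference -0.43 ± 0.17, adjusted p = 0.0854), and 0.17 on bicarbonate (adjusted p = 0.540).

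Of the 6 genes of sterol transfer and the liver X receptors, 0 passed the limma test in either genotype comparison, and 0 had an unadjusted p under 0.05 (31.4% of all genes on bicarbonate and 34.3% on water). These are Stard4, a carrier of cholesterol between membranes, Nr1h3 and Nr1h2, the genes of liver X receptors alpha and beta, the exporters Abca1 and Abcg1, and Lpcat3. Their log2 differences were 0.08 to 0.18 on bicarbonate and -0.04 to 0.27 on water; with the trend on length and GC content removed the sign turned for Abca1 on both drinks and for Stard4 on water, and it turned for Abca1 on water under quantile and median-of-ratios scaling as well. Abca1, a textbook target of these receptors, had 5.05 to 7.16 RPKM in IRR(-/-) mice on bicarbonate, 4.09 to 5.45 RPKM in IRR(-/-) mice on water, 4.05 to 6.497 RPKM in wild-type mice on bicarbonate and 4.604 to 5.66 RPKM in wild-type mice on water.

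The fall of Hmgcs1 in IRR(-/-) kidneys was set against that of each other gene in a limma fit of log2(gene) minus log2(Hmgcs1). All 29 other genes had an estimate above that of Hmgcs1 on both drinks. So did nearly all genes, since Hmgcs1 ranked 200 on bicarbonate and 254 on water from the lowest difference of the 12943 tested. On bicarbonate 28 of the 29 were called above it (adjusted p under 0.05), as were 90.7% of all genes. The gene not called was Fdps (0.39 ± 0.30, adjusted p = 0.231). On water 24 of 29 were called above it, and 88.2% of all genes. The 5 not called were Fdps (0.04 ± 0.30), Pmvk (0.23 ± 0.28), Msmo1 (0.33 ± 0.18), Cyp51 (0.37 ± 0.40) and Fdft1 (0.53 ± 0.25), with adjusted p from 0.0576 to 0.912. Insig2, the other gene called on both drinks, differed from Hmgcs1 by 0.56 ± 0.14 on bicarbonate and 0.53 ± 0.14 on water (adjusted p = 0.00101 and 0.00156). The shares are near those of all genes, and the rows of this fit share the noise of Hmgcs1.

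Bicarbonate against water gave no call among the 30 genes in either genotype by limma, where 0.0232% of all genes passed in IRR(-/-) mice and 0.139% in wild-type mice. At an unadjusted p under 0.05 there were 4 in IRR(-/-) mice (7.99% of all genes) and 8 in wild-type mice (12% of all genes). Groups did not overlap for 3 genes in IRR(-/-) mice (Hmgcs1, Nsdhl and Srebf1; 5.66% of all genes) and for 4 in wild-type mice (Hmgcs1, Nsdhl, Cyp51 and Tm7sf2; 5.86%). The difference of Hmgcs1 between drinks was -0.52 ± 0.09 in IRR(-/-) mice (adjusted p = 0.141, rank 6 by p among all genes) and -0.45 ± 0.09 in wild-type mice (adjusted p = 0.0647, rank 46). In wild-type mice it passed without replicate 4 of those on bicarbonate (-0.52, adjusted p = 0.0274, in a range of 0.0274 to 0.256 over the alternatives).

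The interaction, which takes the wild-type difference between drinks from that of IRR(-/-) mice, was -0.06 ± 0.13 for Hmgcs1 (adjusted p = 0.922). It was called for 0 of the 30 genes by limma, with 0.0155% of all genes called, and 3 (Fdft1, Tm7sf2 and Srebf1) had an unadjusted p under 0.05 (8.19% of all genes). In the average of both genotypes, a contrast chosen after seeing the data, Hmgcs1 fell by 0.48 ± 0.07 on bicarbonate (adjusted p = 0.00920, rank 4), and was called in all 25 alternatives. Nsdhl, a dehydrogenase that takes part in the removal of the C4 methyl groups, fell by 0.32 ± 0.06 (adjusted p = 0.0336). These 2 of 30 genes compare with 0.44% of all genes called in either direction and 0.355% called lower.

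Nsdhl had 17.1, 16.3, 16.1 and 17.2 RPKM in IRR(-/-) mice on bicarbonate and 17.4, 20.2, 23.6 and 20.3 RPKM in IRR(-/-) mice on water. It had 16.9, 16.5, 16.5 and 17.97 RPKM in wild-type mice on bicarbonate and 20.2, 23.2, 20.6 and 23.4 RPKM in wild-type mice on water. The drinks did not overlap in either genotype, while the genotypes overlapped on both drinks. The averaged call was lost in 11 of 25 alternatives, 10 of which each left out 1 library and 1 of which used a replicate block. The summed level of the proximal tubule markers was also lower on bicarbonate than on water in each genotype, without overlap. Slc34a1 was the largest part of that sum, at 779 to 1264 RPKM over the 16 libraries. In the averaged contrast 3 of the 7 markers were called lower. The part of these markers in the differences between drinks was not tested.

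**Figure D4:**
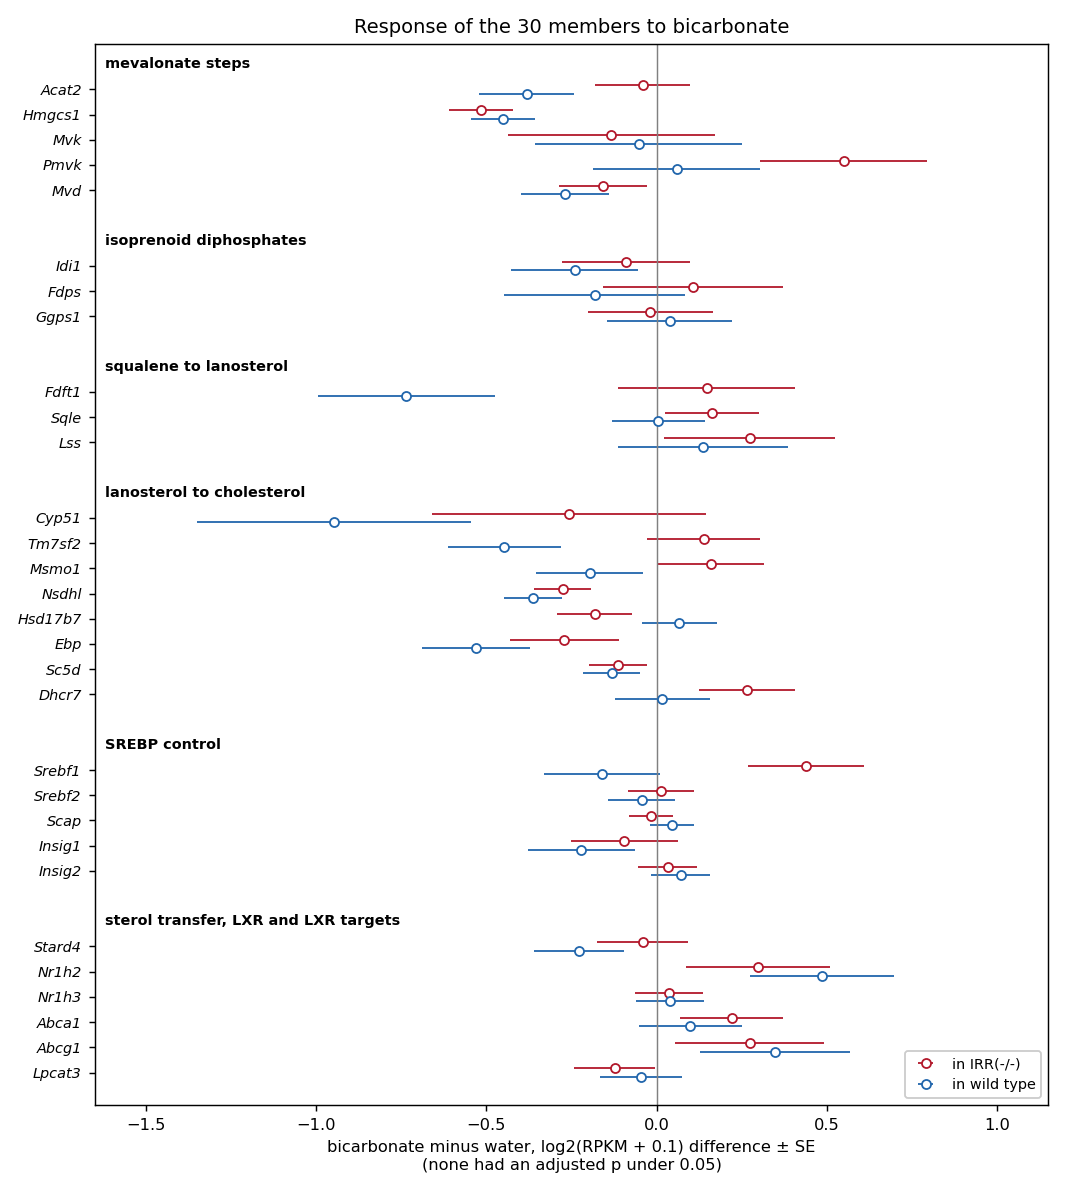
Difference between bicarbonate and water (horizontal axis, log2(RPKM + 0.1) scale, estimate ± SE) of each of the 30 genes, grouped by role, in IRR(-/-) mice (red) and in wild-type mice (blue). No single difference had an adjusted p under 0.05; Hmgcs1 sits at -0.52 and -0.45 with short error bars, and Cyp51 in wild-type mice at -0.95 with a long one, which was -0.41 without replicate 3 of the wild-type mice on bicarbonate.

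Other genes of the pathway were read from 6 lists with 63 genes, of which 59 were in the table and tested. On bicarbonate 3 were higher and 7 lower in IRR(-/-) kidneys, 16.9% of the 59 against 18.4% of all genes. On water 4 were higher and 13 lower, 28.8% against 21.9%.

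Of 5 further genes listed with sterol synthesis, 1 was called higher and 1 lower on each drink (9.03% and 9.36% of all genes on bicarbonate, 10.1% and 11.8% on water). The lower one was Acat1, which the list held although the cytosolic thiolase is Acat2. Acat1, the mitochondrial thiolase of ketone metabolism, had 131 ± 6.97 RPKM in IRR(-/-) mice and 181 ± 15.97 RPKM in wild-type mice on bicarbonate, and 137 ± 16.4 and 241 ± 15.8 RPKM on water (SD, n = 4 each; log2 differences -0.47 ± 0.09 and -0.82 ± 0.09). Cyb5r3, a cytochrome b5 reductase that supplies electrons to sterol oxidases, was higher, at 57.3 ± 0.647 RPKM in IRR(-/-) mice and 45.02 ± 2.22 RPKM in wild-type mice on bicarbonate, and 60.8 ± 3.404 and 42.3 ± 0.333 RPKM on water.

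In the isoprenoid branch, 2 of 10 genes were called lower on bicarbonate (9.36% of all genes), and on water 1 was called higher (10.1%) and 3 lower (11.8%). Rabggtb, a subunit of the enzyme that prenylates Rab proteins, had log2 differences of -0.50 ± 0.13 and -0.55 ± 0.13 on bicarbonate and water, and Coq2, of coenzyme Q synthesis, -0.32 ± 0.06 and -0.23 ± 0.06. Rabggtb on bicarbonate lost its call with the trend on length and GC content removed (adjusted p = 0.0600), and Coq2 on water lost it without replicate 4 of the wild-type mice (adjusted p = 0.0502). Fnta, a shared subunit of the farnesyl and geranylgeranyl transferases, was higher on water (0.42 ± 0.11, adjusted p = 0.0106). Among 10 genes of SREBP processing and sterol-regulated degradation, 1 was called lower on bicarbonate (9.36% of all genes) and 4 on water (11.8%). On water Rnf145, a ubiquitin ligase, had 19.2 ± 1.56 RPKM in IRR(-/-) mice and 26.5 ± 2.23 RPKM in wild-type mice (-0.47 ± 0.09, adjusted p = 0.00238). Rnf139 and Pgrmc1 on water had differences of -0.29 ± 0.07 and -0.22 ± 0.05, which lost their calls with the trend on length and GC content removed (adjusted p = 0.231 and 0.230, against 0.00699 to 0.0240 and 0.00460 to 0.0176 with each library left out). The same held for Pgrmc1 on bicarbonate (-0.21 ± 0.05; adjusted p = 0.260 with the trend removed).

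Among 17 genes of cholesterol uptake, storage and trafficking, 2 were called higher (9.03% of all genes) and 1 lower (9.36%) on bicarbonate, and on water 2 were called higher (10.1%) and 3 lower (11.8%). Gramd1b, which moves cholesterol from the plasma membrane to the endoplasmic reticulum, was higher on both, at 124 ± 14.3 RPKM in IRR(-/-) mice and 67.6 ± 5.46 RPKM in wild-type mice on bicarbonate, and 99.6 ± 13 and 62.9 ± 16.5 RPKM on water (log2 differences 0.87 ± 0.15 and 0.69 ± 0.15). Its relative Gramd1c was lower on water (-0.52 ± 0.12, adjusted p = 0.00613). Scarb1, the HDL receptor, was lower on water, at 6.47 ± 0.393 RPKM in IRR(-/-) mice and 9.92 ± 2.01 RPKM in wild-type mice. On bicarbonate Mylip, a ubiquitin ligase and a target of the liver X receptors, was higher (0.46 ± 0.14, adjusted p = 0.0282) and Apoe lower (-0.49 ± 0.14, adjusted p = 0.0270). The call of Mylip was lost without replicate 2, 3 or 4 of the IRR(-/-) mice or 2 or 4 of the wild-type mice, and that of Apoe without replicate 2 or 4 of the IRR(-/-) mice or 1, 2 or 3 of the wild-type mice (adjusted p from 0.0161 to 0.0893 and from 0.0180 to 0.0816).

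Of 12 fatty acid genes known as targets of SREBP-1, 2 were called lower on each drink (9.36% of all genes on bicarbonate and 11.8% on water). Me1, malic enzyme, had 118 ± 7.27 RPKM in IRR(-/-) mice and 155 ± 11.9 RPKM in wild-type mice on bicarbonate, and 131 ± 5.86 and 190.5 ± 8.48 RPKM on water (log2 differences -0.40 ± 0.07 and -0.54 ± 0.07). Acly, which makes cytosolic acetyl-CoA, had differences of -0.30 ± 0.08 and -0.34 ± 0.08; on bicarbonate its call was lost without replicate 2 or 4 of the IRR(-/-) mice or 1 or 3 of the wild-type mice and in a fit of only these groups (adjusted p from 0.00521 to 0.0591 over the alternatives). Of the 5 oxysterol and bile acid enzymes tested, 0 were called by limma in either genotype comparison, with 1 on bicarbonate (31.4% of all genes) and 2 on water (34.3%) at an unadjusted p under 0.05. Bicarbonate against water called 0 of the 59 genes in IRR(-/-) mice and 0 in wild-type mice by limma, with 8 (7.99% of all genes) and 13 (12%) at an unadjusted p under 0.05.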

How the data were processed

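Kidney RNA of 16 mice was measured as RPKM (reads per kilobase of gene, scaled to library size) per gene, made and deposited by the authors in 1 table with 1 column per library. Per the submitters' processing notes the tools were Salmon 1.5.2 and edgeR 3.34.0, without the step of either, and the builds were mm10 and GRCm39, without the use of either; the gene models behind the RPKM are therefore unknown. Reads could not be recovered from the RPKM, so depth is unknown and no counting interval is given. Symbols, positions and transcript lengths came from GENCODE M21 on GRCm38, which matched every ID.

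Genes with at least 0.5 RPKM in at least 4 libraries were tested in R 4.3.3 with limma 3.58.1 (robust empirical Bayes with a variance trend), taking log2(RPKM + 0.1) as input. The fit held the 4 group means of the 16 libraries and had 12 residual degrees of freedom. Every adjusted p in the text is a two-sided limma value with Benjamini-Hochberg adjustment over all genes tested, and a call is an adjusted p under 0.05. Log2 differences understate the change of low genes. "Rank" and "most abundant" refer to RPKM, which is per length. The same fit on log2(gene) minus log2(Hmgcs1) tested whether a gene's change differed from that of Hmgcs1. The scripts were tested on simulated data first.

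The members, the lists and the naming rule were chosen with earlier results of these data known. Values of every library are given for each member called in a comparison, and up to 3 called genes per pathway list were named; some genes of the pathway are not reported here and are left out of the list counts. Groups came from the genotype and treatment labels, which state 4 animals per group. Same-numbered mice of different groups did not deviate together (correlations -0.0975 to 0.105), and the main fit took them as unpaired. Whether the numbers pair animals is unknown. A batch that followed genotype cannot be told apart from it. Alternatives changed the pseudocount, the filter, the scaling, the variance model, the groups in the fit, a length and GC trend, a replicate block and each library in turn.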

Additional observations from a re-analysis of the deposited data

Results flagged for a closer look

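A library that lay far from the other 3 of its group was found in 6 of the 120 groups of 4 values (30 genes in 4 groups), where chance gives about 1 in 20. Among the enzymes, Mvk had 5.68 RPKM in replicate 2 of the IRR(-/-) mice on bicarbonate, against 2.41 to 2.68 RPKM in the others of that group. Fdps had 3.68 RPKM in replicate 4 of the IRR(-/-) mice on bicarbonate, against 7.63 to 8.11 RPKM in the others. Cyp51 had 12.4 RPKM in replicate 3 of the wild-type mice on bicarbonate, against 54.1 to 55.6 RPKM in the others. Hsd17b7 had 6.47 RPKM in replicate 1 of the wild-type mice on water, against 7.65 to 7.79 RPKM in the others. Among the liver X receptor genes, Nr1h2 had 84.9 RPKM in replicate 3 of the wild-type mice on bicarbonate, against 39.2 to 45.7 RPKM in the others, and Abca1 had 4.09 RPKM in replicate 3 of the IRR(-/-) mice on water, against 5.24 to 5.45 RPKM in the others. The low Cyp51 and the high Nr1h2 value came from the library that stood apart on the second principal component.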

How the results depend on the processing

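The genotype difference of Hmgcs1 kept its direction and its call in all 26 alternatives on each drink, between -1.17 and -1.01 on bicarbonate and between -1.08 and -0.89 on water. Its difference between drinks in IRR(-/-) mice was called in 0 of 26 alternatives by limma (adjusted p from 0.0540 to 0.378). In wild-type mice it lay between -0.52 and -0.41 with 1 library left out, and was called without replicate 4 of those on bicarbonate, so the count of genes called there was 0 to 1. Without that library the interaction of Hmgcs1 was 0.0015 against -0.06, within a range of -0.14 to 0.0015. With a replicate block 1 of the 30 genes was called in the average of both genotypes, and 1 to 2 were with 1 library left out. The block gave 4 and 6 called genes for genotype on bicarbonate and water, and it changed no call of Hmgcs1. Of 30 differences named for single genes, 19 stayed past the threshold in every alternative run on them, and the cause of the other losses was not tested. Under 3 other scalings the sign turned for at most 4 of the 30 genes in a comparison, none of them called there. No scaling moved the median of all genes by more than 0.05 (log2). The fit of only the groups compared could not be made for the interaction and the average. Depth is unknown, so how much counting error adds to the spread of low genes cannot be given.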

Other observations

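Short transcripts differed between genotypes more often than long ones. Among 500 genes whose longest transcript is up to 1000 nt, 38% were called on bicarbonate and 48.2% on water, with median log2 differences of 0.21 and 0.38. Among the 12443 longer genes the shares were 17.6% and 20.8%, with medians of -0.02 and -0.06. All 30 genes described here are in the longer class.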
